A study of Drosophila melanogaster with 9 samples.

Results

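The transcriptome of Drosophila S2R+ cells treated with the first of the dsRNAs against Hrb98DE was compared with that of cells treated with dsRNA against lacZ, a bacterial gene with no counterpart in the fly. The members were chosen by sample title: replicates 1, 3 and 4 of the first Hrb98DE knockdown, called KD1 below, and replicates 1, 2 and 3 of the lacZ control, which are 6 of the 9 libraries of the series. Of the 17559 genes counted, the 7415 with a mean above 1 CPM, the count scaled to the library total, over these 6 libraries were tested. S2R+ is an established cell line, labelled as derived from late embryos of the strain Oregon R. Cells of both groups took up dsRNA during 6 h without serum, were treated again, and were harvested on day 5 after the first treatment, so that starvation and repeated dsRNA uptake were common to knockdown and control. The line was grown at 25 °C with 10% serum, and polyadenylated RNA was sequenced. The study describes its samples as biological replicates, and 3 per group were analysed here. The p-values rest on the spread between cultures within groups over all 9 libraries, which were fitted together.

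Hrb98DE is a heterogeneous nuclear ribonucleoprotein (hnRNP) of the A/B type. Proteins of this family coat nascent transcripts, compete with SR proteins over the choice of splice sites, and accompany messenger RNA through its maturation and export. In a bulk library a change of a transcript can lie in any of these steps, and fewer cells of a type cannot be told apart from less RNA per cell.

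The knockdown was visible in every library. Hrb98DE (3R, 28599834 to 28605777, BDGP6) had 1014, 867.4 and 1051 normalised counts in KD1, against 6760, 7122 and 6904 in lacZ. The means were 977.6 ± 97.2 and 6929 ± 182 (SD, n = 3 each), KD1 retained 14.1% of the lacZ level, and the groups were far apart. The libraries held between 13040608 and 15858000 counts on genes, with between 10264 and 10519 genes detected. The 6 libraries separated by group along the first principal component, which held 89.5% of the variance. Among controls, lacZ replicate 2 stood apart from lacZ replicates 1 and 3: the chi-square per degree of freedom was 14.2 and 8.32 against them, and between 4.26 and 5.31 in the other pairs within a group. Counts that rest on this library are therefore given with and without it.

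Falls outnumbered rises. In the DESeq2 fit, 546 genes passed an adjusted p of 0.05 with a fold change above 1.3 (7.36%), of which 165 rose (2.23%) and 381 fell (5.14%). Without lacZ replicate 2, 628 were called (8.47%), of which 215 rose (2.90%) and 413 fell (5.57%). The 3 KD1 libraries did not overlap the 3 lacZ libraries for 536 of the 546, a separation that 39.5% of all tested genes had (KD1 higher in 19.3%, lower in 20.2%). Apart from Hrb98DE, genes named by rule below had to have this separation, so it adds no support for them. The changes were small in size. Of the 546, 425 stayed below 2-fold, the median log2 fold change was 0.52 among rises and −0.64 among falls, and the median over all tested genes was 0.00. Of the genes that passed the CPM filter only through the higher group, 12 of 37 rose and 30 of 81 fell, and these had to differ.

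**Figure D1:**
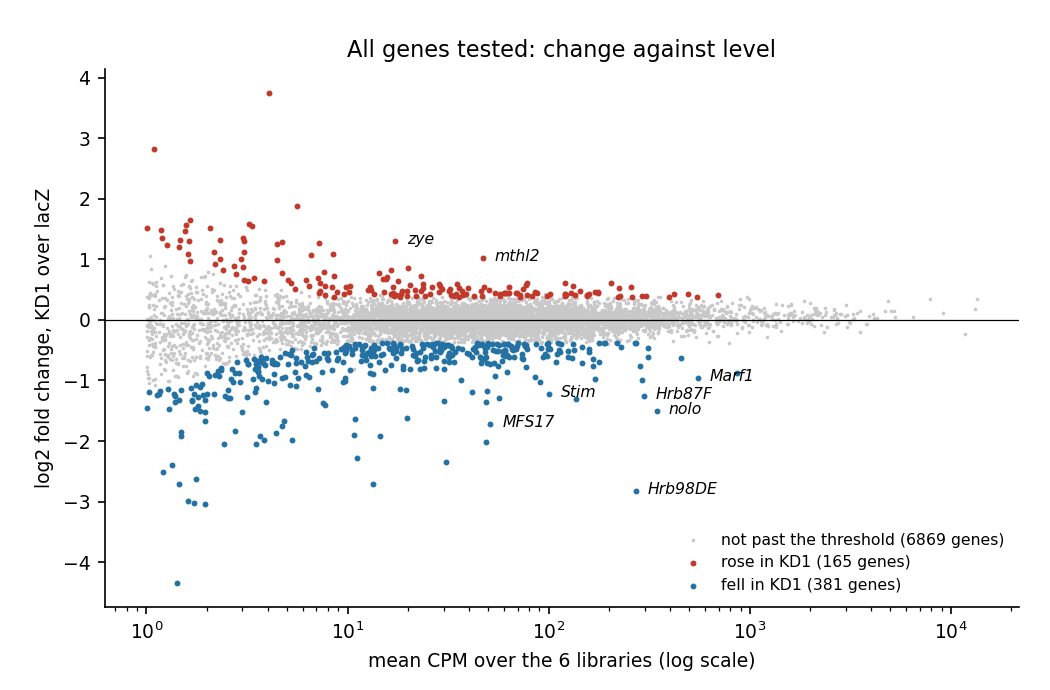
Log2 fold change of KD1 over lacZ (vertical axis) against the mean level over the 6 libraries in CPM (horizontal axis, log scale), each point 1 of the 7415 tested genes; the 165 genes that rose and the 381 that fell past the threshold are coloured. Most coloured points lie close to the band of unchanged genes, and the falls reach further from 0 than the rises.

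Genes were grouped into 99 functional classes by known membership, which together covered 2227 of the 7025 protein-coding genes tested. The shares of genes called varied between groups of classes. In translation 15 of 273 genes rose (5.50%) and 1 fell (0.37%). Falls were frequent among neuronal and membrane proteins, where 15 of 66 fell (22.7%), among matrix and adhesion genes, with 21 of 132 (15.9%), and among signalling genes, with 24 of 263 (9.13%). Of the 132 matrix and adhesion genes 6 rose (4.5%). Noncoding RNAs fell and rose in 18 of 188 each (9.57%), and immunity and blood cell genes fell in 8 of 84 (9.52%) and rose in 5 (5.95%). The cell cycle and genome classes held 1 rise and no fall in 173 genes with DESeq2 and with edgeR, and 12 of these genes were lower at an unadjusted p of 0.05. Such shares are read against 2.23% risen and 5.14% fallen over all genes, and the difference itself was not tested.

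**Figure D2:**
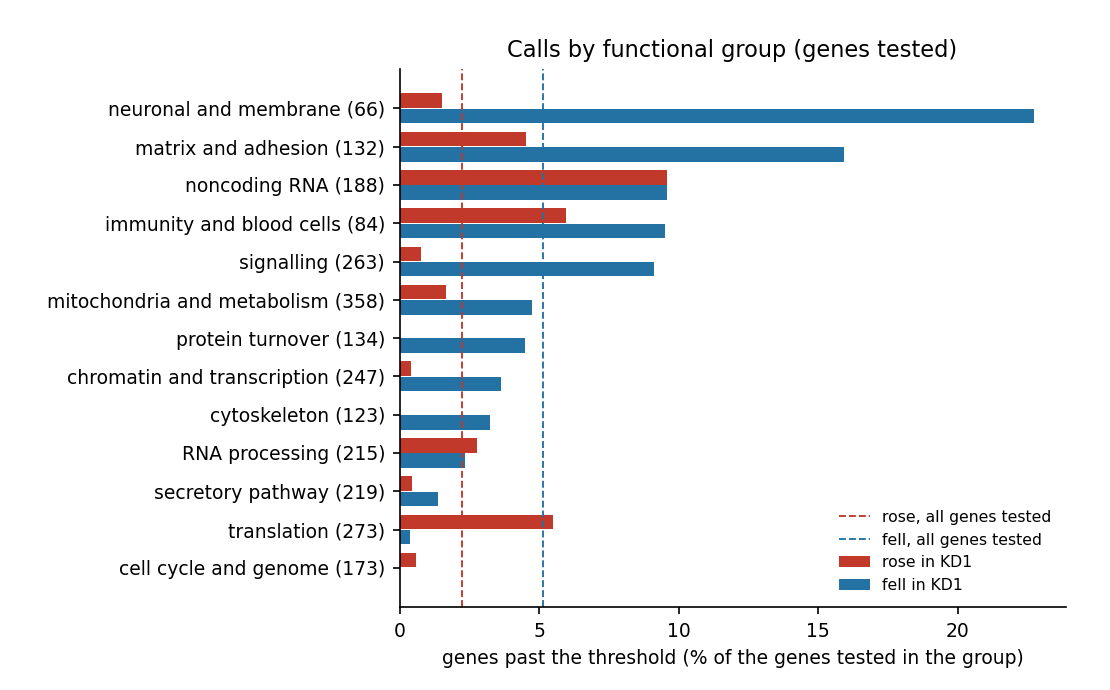
Percentage of tested genes that rose and fell in KD1 against lacZ, for each functional group with at least 60 tested genes; bars start at 0 and dashed lines mark the shares over all genes, 2.23% and 5.14%. Falls exceed their line most among neuronal and membrane genes (22.7%) and matrix and adhesion genes (15.9%). Rises exceed theirs among translation genes (5.50%). Both lines are exceeded by noncoding genes (9.57% each way), immunity and blood cell genes (5.95% risen, 9.52% fallen) and matrix and adhesion genes (4.5% risen).

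Ribosome assembly factors work in the nucleolus, where ribosomal RNA is transcribed, modified, cut and packed into pre-ribosomal particles. Of the 27 tested, none fell and 10 rose with DESeq2 and with edgeR. None was lower at an unadjusted p of 0.05. All 27 had a log2 fold change above 0 except Non1 at 0.00 to 2 decimals, 24 were higher at an adjusted p of 0.05 without the fold requirement, where 9.75% of all genes were, and the median log2 fold change was 0.32. The count was sensitive to the controls: 17 rose without lacZ replicate 2, and between 7 and 12 when any other library was left out. A class score, the median over the class of each gene's log2 level minus its lacZ mean, was 0.41, 0.27 and 0.38 in KD1, against −0.08, 0.14 and −0.06 in lacZ. The score of lacZ replicate 2 lay between those of the other controls and those of KD1, and the groups did not overlap.

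Factors of the small subunit included the largest rises of the class. Tsr1, a GTPase-like factor of late small-subunit maturation, had 2420, 2126 and 2424 normalised counts in KD1, against 1434, 1778 and 1503 in lacZ (log2 fold change 0.56 ± 0.08 SE, DESeq2 adjusted p = 3.31e-10). RIOK1, an atypical kinase that acts at the same stage, had 517.9, 479.6 and 531.9 normalised counts in KD1, against 344.0, 371.4 and 295.1 in lacZ (0.59 ± 0.11 SE, adjusted p = 6.66e-07). The choice of both genes required that every KD1 culture was above every control. Among the core proteins of the box C/D particles that methylate ribosomal RNA, Fib, the methyltransferase fibrillarin, had 3191, 2856 and 3020 normalised counts in KD1, against 2028, 2533 and 1991 in lacZ (0.47 ± 0.09 SE, adjusted p = 7.32e-06). Its partner nop5 rose by a similar amount, with 3078, 2745 and 2901 against 1986, 2369 and 1983 normalised counts (0.46 ± 0.09 SE, adjusted p = 2.60e-06). The highest control of each was lacZ replicate 2, and it was still below the lowest KD1 library. Nopp140, a nucleolar phosphoprotein that associates with small nucleolar particles, was the more abundant, with 7192, 6662 and 7556 normalised counts in KD1, against 5036, 5756 and 5058 in lacZ (0.43 ± 0.06 SE, adjusted p = 6.09e-10). On the large subunit, ppan had 1169, 1036 and 1147 normalised counts in KD1, against 717.0, 865.6 and 715.1 in lacZ (0.54 ± 0.10 SE, adjusted p = 4.24e-07), and Nnp-1 rose by 0.43 ± 0.07 (SE). None of these 7 calls was lost when any 1 library was left out. The nucleolar genes mbm and mod rose by 0.44 and 0.41, and each lost its call without lacZ replicate 1, mod also without KD1 replicate 1.

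The classes around the assembly factors shifted the same way with fewer calls. DEAD-box helicases, several of which unwind pre-ribosomal RNA, had 4 rises and 1 fall in 23 and a median of 0.19. When 1 library was left out, between 4 and 6 rose. The class score was 0.20, 0.11 and 0.24 in KD1, against −0.05, 0.10 and −0.06 in lacZ. The risen helicases were Dbp73D (0.45), pit (0.44), pths (0.44) and CG8611 (0.43). For pit, 2293, 1995 and 2285 normalised counts in KD1 stood against 1472, 1821 and 1546 in lacZ (adjusted p = 1.82e-05), with no overlap. The fallen helicase, Dbp80, belongs to another step, the release of messenger RNA at the nuclear pore. It had 856.0, 817.8 and 900.4 normalised counts in KD1, against 1568, 1727 and 1650 in lacZ (log2 fold change −0.94 ± 0.07 SE, adjusted p = 7.10e-38). The subunits of RNA polymerases I and III, which transcribe ribosomal, transfer and other structural RNA, were higher in 16 of 18 with a median of 0.16, and 2 rose, or 4 without lacZ replicate 2 or without KD1 replicate 4 and 1 without KD1 replicate 1 or without lacZ replicate 3. Polr1A and Polr1B, the catalytic core of RNA polymerase I, passed the threshold at 0.40 and 0.39, although both fell short of the fold without lacZ replicate 1 or lacZ replicate 3, Polr1A also without KD1 replicate 4 and Polr1B without KD1 replicate 1.

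In the RNA exosome, which trims and degrades nuclear RNA, 15 of 15 members were higher, with a median of 0.22. None was called by DESeq2 or edgeR, 12 had an unadjusted p under 0.05 and 8 an adjusted p under 0.05, which 21.2% of all tested genes had. Its class score was 0.27, 0.22 and 0.24 in KD1, against −0.06, 0.08 and −0.06 in lacZ. Aminoacyl-tRNA synthetases were higher in 27 of 30 (median 0.17), with 1 rise and 1 fall. Their lowest KD1 class score was 0.106, close to 0.097 in lacZ replicate 2. Nuclear pore proteins were higher in 36 of 41 (median 0.12), with no call. Their class scores overlapped, with 0.15, 0.08 and 0.14 in KD1 against −0.05, 0.11 and −0.04 in lacZ. The ribosomal proteins themselves moved little: of 81 cytosolic ones 1 rose, RpS19b at 0.48 ± 0.12 (SE), none fell, and the median was 0.05. RpS19b has a close paralog, and reads that fit both copies could be split between them.

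**Figure D3:**
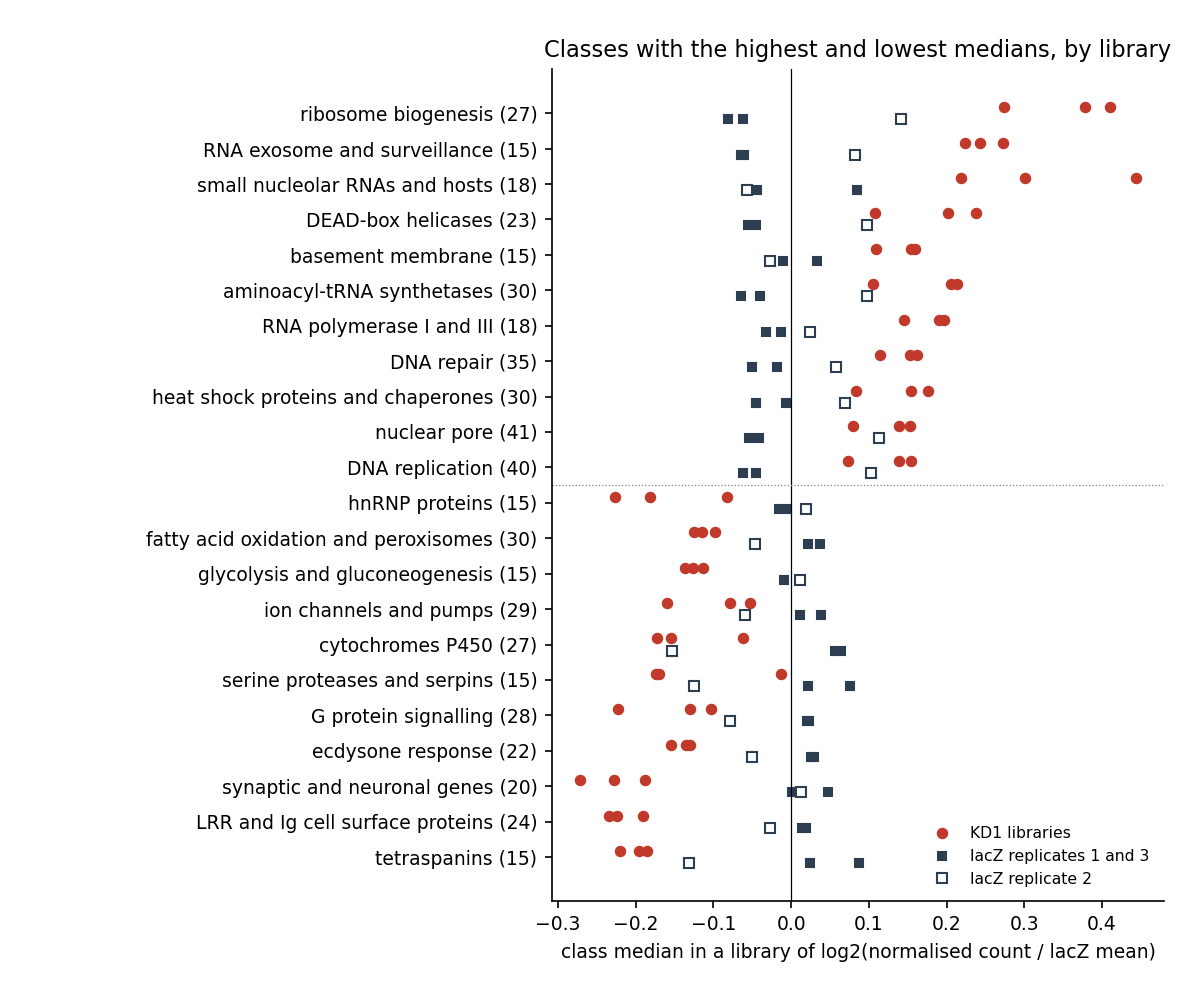
Class score in each library, the median over the class of log2 level minus the lacZ mean (horizontal axis, log2 units), for the 11 classes with the highest and the 11 with the lowest median change among those with at least 12 tested genes; KD1 libraries are red circles, lacZ libraries dark squares, lacZ replicate 2 open. Ribosome biogenesis is at the top with KD1 scores between 0.27 and 0.41, and in the upper classes the open square is the control nearest to KD1, except for basement membrane and small nucleolar RNAs.

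In amino acid and one-carbon metabolism 3 of 34 genes rose and 1 fell. pug, the trifunctional enzyme of folate one-carbon metabolism, had 383.3, 362.1 and 344.0 normalised counts in KD1, against 262.7, 224.0 and 243.2 in lacZ (log2 fold change 0.58 ± 0.10 SE, adjusted p = 5.96e-07). Sam-S, which makes S-adenosylmethionine, the common methyl donor, had 8430, 7740 and 8790 against 5897, 6630 and 6102 normalised counts (0.42 ± 0.07 SE, adjusted p = 2.12e-07). Both were higher in 3 of 3 KD1 cultures. Over the class 26 were higher, and leaving out 1 library gave between 2 and 6 rises, with 5 without lacZ replicate 2 and 6 without KD1 replicate 3. The third rise, of the purine enzyme Adss, was lost without KD1 replicate 1 or without lacZ replicate 3. Argl, which splits argininosuccinate in arginine synthesis, fell, with 206.2, 214.9 and 194.3 normalised counts in KD1 against 341.0, 291.1 and 411.1 in lacZ (−0.76 ± 0.13 SE).

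Part of G protein signalling fell. In this class, where a receptor acts through a trimeric G protein on phospholipase C or adenylyl cyclase, 7 of 28 tested genes fell, 1 rose, 21 were lower and the median log2 fold change was −0.13. The class score was −0.22, −0.13 and −0.10 in KD1, against 0.02, −0.08 and 0.02 in lacZ. The count of falls stayed between 6 and 8 when 1 library was left out and came to 4 after correction for exon length.

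Some members of the route through phospholipase C and calcium fell and others did not pass. Galphaq, the alpha subunit that activates the phospholipase, had 307.0, 400.3 and 370.5 normalised counts in KD1, against 630.8, 495.2 and 617.8 in lacZ (log2 fold change −0.69 ± 0.12 SE, adjusted p = 7.10e-07). Plc21C, a phospholipase C of the beta type, had 207.2, 242.7 and 201.7 normalised counts in KD1, against 420.2, 320.4 and 401.2 in lacZ (−0.81 ± 0.12 SE, adjusted p = 2.48e-09). In both the lowest control was lacZ replicate 2, and it was above all KD1 libraries. Itpr, the calcium channel of the endoplasmic reticulum that the phospholipase product opens, fell by 0.38 on the log2 scale, a call lost by the fold requirement without lacZ replicate 2 or KD1 replicate 1. Stim, the sensor that reports an emptied calcium store to the plasma membrane, had 832.4, 882.7 and 930.1 normalised counts in KD1, against 2051, 1935 and 2209 in lacZ, or 42.7% (−1.23 ± 0.07 SE, adjusted p = 1.37e-63). Its partner channel Orai had 2515, 2597 and 2662 normalised counts in KD1, against 2555, 2391 and 2469 in lacZ, and the overlapping groups differed by 0.07 ± 0.05 (SE, adjusted p = 0.40).

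Of the genes for cyclic AMP, the cyclases Ac13E, Ac3 and rut and the phosphodiesterase dnc fell. The KD1 and lacZ libraries of Ac13E overlapped. Ac3, an adenylyl cyclase, had 572.5, 573.2 and 546.8 normalised counts in KD1, against 884.5, 810.8 and 906.3 in lacZ (−0.62 ± 0.08 SE, adjusted p = 3.53e-14). The fall of rut was 0.46 on the log2 scale, and that of dnc, which degrades cyclic AMP, was 0.45. The KD1 libraries of rut and dnc did not overlap the controls. Among related genes outside the class, chosen after their values were seen, Ac78C, another cyclase, had 51.4% of the lacZ level and Pde9, a cyclic nucleotide phosphodiesterase, 50.6%. Gprk1, a kinase that desensitises receptors, had 420.9, 526.4 and 501.1 normalised counts in KD1, against 1218, 1159 and 1168 in lacZ, or 40.9% (−1.29 ± 0.08 SE, adjusted p = 2.71e-50). Gbeta13F (−0.07), Galphas (−0.01) and Pka-C1 (0.02) did not pass. The 1 rise was mthl2, a receptor of the Methuselah family, with 908.7, 930.5 and 955.6 normalised counts in KD1 against 492.4, 429.0 and 447.6 in lacZ (1.03 ± 0.09 SE, adjusted p = 8.82e-31).

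Genes named for the synapse were measurable in these cells in part. Of 20 tested, 4 fell, none rose and 17 were lower, with a median of −0.22, and the count of 4 was kept whichever library was left out. Of the 20, 4 others passed the CPM filter only through lacZ and had to be lower, and the median was −0.13 after correction for exon length. unc-13 (4, 867824 to 912331, BDGP6), which primes vesicles for fusion, had 1609, 1755 and 1665 normalised counts in KD1, against 3195, 3454 and 3283 in lacZ, or 50.6% (−0.98 ± 0.07 SE, adjusted p = 2.56e-40). Cadps, which does the same for dense-core vesicles, had 671.4, 644.8 and 624.3 against 945.6, 838.2 and 946.1 normalised counts (−0.49 ± 0.07 SE, adjusted p = 3.59e-09). cpx, a clamp on the fusion machinery, was scarce at 6.17 CPM and fell by 0.76 ± 0.19 (SE, log2). Dys, dystrophin, fell by 0.56 ± 0.06 (SE, log2). The choice of these 4 required that no KD1 library overlapped a control. The class score was −0.23, −0.19 and −0.27 in KD1, against 0.00, 0.01 and 0.05 in lacZ.

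Adhesion molecules with immunoglobulin or leucine-rich repeats, which label cell surfaces for recognition, fell in 6 of 24 and rose in 2, with a median of −0.23. Between 4 and 6 fell when 1 library was left out, and 3 fell among genes above 1 RPKM. Dscam1, known for its many alternatively spliced ectodomains, had 3010, 3188 and 3168 normalised counts in KD1, against 5344, 5364 and 5158 in lacZ, or 59.0% (−0.76 ± 0.05 SE, adjusted p = 8.42e-46). Ptp4E, a receptor tyrosine phosphatase, had 936.9, 957.2 and 986.4 against 1341, 1314 and 1357 normalised counts (−0.48 ± 0.06 SE, adjusted p = 1.70e-12). dpr3 fell to 31.5% of lacZ at a mean of 4.83 CPM. Going the other way, sli, the secreted ligand of Robo receptors, had 3911, 3844 and 3902 normalised counts in KD1, against 2781, 2569 and 2734 in lacZ (0.53 ± 0.05 SE, adjusted p = 3.67e-22), and dpr20 rose by 0.48 ± 0.11 (SE, log2). For Dscam1, Ptp4E and sli the 3 libraries within each group lay close together relative to the gap.

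Ion channels and pumps fell in 6 of 29 and rose in 1, but 3 fell without KD1 replicate 1, and the class scores of the groups overlapped. Besides Stim and Itpr, nrv2, a beta subunit of the sodium pump, had 572.5, 643.9 and 620.1 normalised counts in KD1, against 837.3, 785.3 and 877.6 in lacZ (−0.44 ± 0.08 SE, adjusted p = 1.57e-06). The acetylcholine receptor subunits split: nAChRalpha4 fell to 26.4% of lacZ at 3.69 CPM, and nAChRbeta3 rose, with 424.7, 408.9 and 415.1 against 283.8, 291.1 and 287.4 normalised counts (0.53 ± 0.09 SE, adjusted p = 2.98e-07). Among solute carriers, 5 of 40 fell and 2 rose, with 3 falls without lacZ replicate 1, without lacZ replicate 3 or without KD1 replicate 1. MFS17, of the major facilitator family, had 317.3, 339.1 and 386.5 normalised counts in KD1, against 1234, 1013 and 1195 in lacZ, or 30.3% (−1.72 ± 0.10 SE, adjusted p = 5.72e-68). MFS14 of the same family rose, with 2042, 2214 and 2235 against 1364, 1420 and 1461 normalised counts (0.61 ± 0.07 SE).

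**Figure D4:**
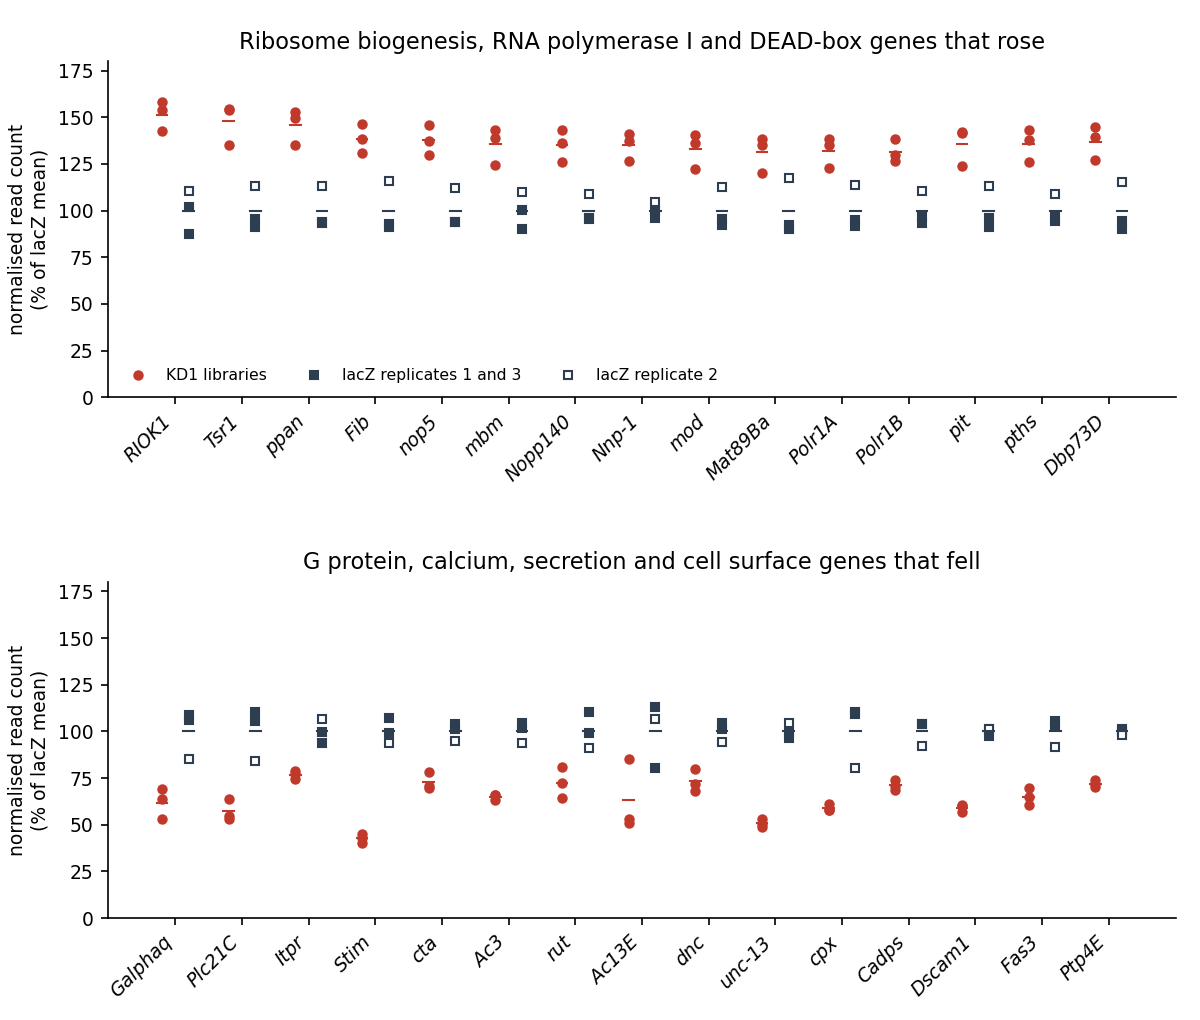
Normalised counts of 15 genes that rose and 15 that fell, drawn from the ribosome assembly, helicase and polymerase classes and from the signalling, synaptic and adhesion classes, as a percentage of the lacZ mean (vertical axis); KD1 libraries are red circles, lacZ libraries dark squares, lacZ replicate 2 open, and short lines are group means. The groups overlap for Ac13E. The KD1 and lacZ points of Stim, unc-13 and Dscam1 are tightly grouped and well apart, at 42.7%, 50.6% and 59.0%, and the rises lie nearer to 100%, with 148% for Tsr1.

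Basement membrane genes were called in both directions. The basement membrane is the sheet of collagen IV, laminin and perlecan under epithelia, which blood cells of the fly help to secrete. Of 15 genes 3 rose, 2 fell and 11 were higher, with a median of 0.18. The fall of wb, a laminin alpha chain, by 0.39 on the log2 scale was lost without KD1 replicate 1, lacZ replicate 1 or lacZ replicate 3. The rise of Ppn by 0.39 was lost without KD1 replicate 1, KD1 replicate 3, lacZ replicate 1 or lacZ replicate 2. The paired collagen IV chains lie side by side on 2L and both rose: Col4a1 had 485.0, 459.5 and 441.7 normalised counts in KD1, against 311.9, 303.3 and 338.2 in lacZ (0.54 ± 0.09 SE, adjusted p = 1.50e-07), and vkg had 262.7, 247.4 and 270.7 against 190.5, 183.3 and 193.4 (0.46 ± 0.11 SE, adjusted p = 7.26e-04). LanB1 and LanB2, laminin chains, were each higher by 0.32 ± 0.05 (SE, log2), short of the fold requirement, and LanA differed by 0.09 with overlapping groups. Plod, which hydroxylates the lysines of collagen, fell, with 528.3, 539.8 and 527.7 normalised counts in KD1 against 803.2, 785.3 and 840.0 in lacZ (−0.60 ± 0.08 SE, adjusted p = 1.18e-13). nolo, a secreted protein of the ADAMTS-like type, was among the larger falls, with 2541, 2765 and 2598 against 7730, 6795 and 7812 normalised counts, or 35.4% (−1.50 ± 0.07 SE).

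Of 16 blood cell regulators and enzymes 2 rose and 10 were lower (median −0.01), and of 12 phagocytic and scavenger receptors 1 rose, 1 fell and 9 were lower (median −0.09). The 2 risen blood cell genes were Hml and Ppn, and Ppn is the basement membrane gene above that lost its call under 4 left-out libraries. Hml, hemolectin, a clotting protein of larval blood, had 315.5, 277.0 and 268.6 normalised counts in KD1, against 158.4, 192.8 and 176.8 in lacZ (0.71 ± 0.13 SE, adjusted p = 5.96e-07), and Sr-CI, a scavenger receptor for bacteria, had 1441, 1310 and 1325 against 835.3, 916.7 and 989.2 (0.57 ± 0.07 SE, adjusted p = 1.54e-12). The choice of Hml and Sr-CI required that the groups did not overlap. The list of 12 blood cell markers, 11 of them above 1 CPM, summed to between 1931 and 1993 CPM in KD1 and between 1725 and 1765 CPM in lacZ. Within it, eater, a phagocytic receptor, had between 8.95 and 9.60 CPM in KD1 and between 11.1 and 12.2 CPM in lacZ (log2 fold change −0.30), and crq (−0.10) and srp (−0.03) did not pass either. Markers of neurons summed to between 22.6 and 24.2 CPM in KD1 and between 26.6 and 29.1 CPM in lacZ, with 2 of 6 above 1 CPM and the transmitter genes VGlut and ChAT near 0. Most of the sum was elav, with between 20.94 and 22.55 CPM in KD1 and between 24.78 and 27.3 CPM in lacZ (log2 fold change −0.22). The other marker above 1 CPM, brp, was higher in KD1 (0.28), and neither passed the threshold. Markers of muscle summed to at most 6.31 CPM in KD1 and 7.65 CPM in lacZ. The part of these shifts in the class results was not tested. In the 15 serine proteases and serpins, 3 fell and 1 rose under every left-out library. The serpins Spn42Da and Spn42Dc, neighbours on 2R, fell by 0.51 and 1.13 on the log2 scale, and Spn42De of the same cluster rose by 0.82, although reads of such related genes could be split by the counting. Sp7, a protease of the melanisation cascade, had 511.3, 618.1 and 521.3 normalised counts in KD1, against 950.7, 806.1 and 960.4 in lacZ (−0.72 ± 0.12 SE).

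In other signalling pathways a minority of genes fell past the threshold, among them ligands, receptors and inhibitors. Without regard to the threshold, 14 of 18 BMP and activin genes and 14 of 19 Notch genes were lower. The median log2 fold change was −0.08 in both classes, against 0.00 over all tested genes. Of the 18 BMP and activin genes, 1 passed the CPM filter only through lacZ and had to be lower. In the Hedgehog class 8 of 11 genes were higher, but the median was 0.02 and the class scores of the groups overlapped. In EGF receptor and Ras signalling 4 of 32 fell and none rose, among them Krn, a ligand of the receptor (27.2% of lacZ at 4.40 CPM), Pvf2, a ligand of the related PVR receptor, and RasGAP1, which switches Ras off. Pvf2 had 1534, 1728 and 1600 normalised counts in KD1, against 2466, 2019 and 2390 in lacZ (−0.50 ± 0.08 SE), and RasGAP1 had 1943, 2010 and 1928 against 2801, 2633 and 2764 (−0.48 ± 0.05 SE). The choice of Pvf2 and RasGAP1 required that all KD1 libraries were below all controls. EcR, the receptor of the steroid ecdysone, fell, with 501.9, 524.5 and 537.2 against 781.2, 705.9 and 773.7 normalised counts (−0.53 ± 0.08 SE, adjusted p = 4.22e-09). In the ecdysone class of 22, 16 were lower and 3 fell, but 1 fell without KD1 replicate 1 or without KD1 replicate 4. In the insulin and TOR class of 34, 24 were lower, 10 of them at an adjusted p under 0.05 without the fold requirement, where 11.5% of all genes were. Past the threshold 2 fell: sima, the oxygen-sensitive HIF alpha subunit, by 0.51 ± 0.06 and Mnt, a repressor that competes with Myc for Max, by 0.45 ± 0.07 (SE, log2). The count rose to 4 without KD1 replicate 4, without lacZ replicate 1 or without lacZ replicate 2. In the Toll class of 16, Pli, a pellino ubiquitin ligase, had 571.6, 574.2 and 552.1 normalised counts in KD1, against 1013, 851.4 and 946.1 in lacZ (−0.73 ± 0.09 SE, adjusted p = 4.20e-15), and 3 fell in all. daw, an activin-like ligand, and nkd, an inhibitor of Wnt signalling, fell by 0.52 and 0.57 on the log2 scale.

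In the following RNA processing classes few members passed the threshold. Of 15 hnRNP proteins 12 were lower, 7 of them at an adjusted p under 0.05 without the fold requirement, where 11.5% of all genes were. The class score was −0.23, −0.18 and −0.08 in KD1, against −0.02, 0.02 and −0.005 in lacZ. The 2 past the threshold were Hrb98DE and its close paralog Hrb87F. Hrb87F had 2483, 2457 and 2753 normalised counts in KD1 against 6015, 6320 and 6124 in lacZ. In small RNA pathways, Hen1, which methylates the ends of small RNAs, rose, with 304.2, 257.0 and 256.9 normalised counts in KD1 against 173.5, 167.3 and 171.3 in lacZ (0.68 ± 0.12 SE, adjusted p = 3.80e-07). AGO3, a Piwi-type Argonaute, fell, with 113.0, 167.2 and 131.7 against 255.7, 282.6 and 228.8 (−0.90 ± 0.15 SE, adjusted p = 4.47e-08). The choice of Hen1 and AGO3 required that the KD1 libraries did not overlap the controls. No gene passed among the 12 of nonsense-mediated decay, the 16 of cleavage and polyadenylation, the 14 of messenger RNA export and the 19 of deadenylation and decapping, with DESeq2 or with edgeR. Of these 61 genes 13 had an unadjusted p under 0.05. An adjusted p under 0.05 without the fold requirement was reached by 4 of them, and by 21.2% of all tested genes. The list for messenger RNA export did not hold Dbp80, which fell (log2 fold change −0.94) and was counted with the DEAD-box helicases.

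Several basic machineries had no call in the DESeq2 fit. This held for respiratory complex I (32 genes), complexes II to V (36), the mitochondrially encoded genes (15), the tricarboxylic acid cycle (19), DNA replication (40), cyclins and checkpoint genes (40), spindle and kinetochore genes (51), RNA polymerase II and Mediator (77), endocytosis (51) and Golgi coats (35). Of these 387 different genes 81 had an unadjusted p under 0.05 and 42 an adjusted p under 0.05, which 21.2% of all tested genes had. Among them edgeR called 1. In glycolysis and gluconeogenesis 3 of 15 genes fell (20%, against 5.14% over all genes), Ldh, Tpi and fbp. None rose, and the median log2 fold change was −0.12. The class score was −0.11, −0.13 and −0.14 in KD1, against 0.01, 0.01 and −0.01 in lacZ. Between 1 and 2 of these genes fell when 1 library was left out. Of 17 pentose phosphate and sugar storage genes 1 fell, with a median of −0.09. The proteasome, which degrades ubiquitin-tagged proteins, was lower in 30 of 35 with a median of −0.09, and 1 gene passed, Rpt6R, a paralog of the ATPase subunit Rpt6, with 730.7, 705.0 and 759.1 normalised counts in KD1 against 1105, 1125 and 1061 in lacZ (−0.59 ± 0.07 SE). Beside it, Roc2, a RING subunit of cullin ligases, and Atg5, of the conjugation system that builds autophagosomes, fell by 0.65 ± 0.08 and 0.53 ± 0.11 (SE, log2). The transcript of Nipped-A, a large scaffold of histone acetyltransferase complexes, was at 50.5% of lacZ, with 2389, 3267 and 2919 against 5821, 5819 and 5334 normalised counts (−0.99 ± 0.15 SE). Marf1, an RNA-binding protein chosen after its values were seen, was at 51.2% of lacZ (−0.97 ± 0.07 SE).

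Further genes came from the 15 largest rises and 15 largest falls among protein-coding genes above 5 CPM whose groups did not overlap. Scarcer genes with wider changes, such as CG18545 (−4.34 ± 0.72 SE, 1.42 CPM) and Nep6 (1.31 ± 0.26 SE, 3.07 CPM), are named after their values were seen. zye, a membrane protein of the zona pellucida type, had the largest rise above 5 CPM, with 387.0, 347.7 and 349.3 normalised counts in KD1 against 132.4, 177.7 and 128.2 in lacZ (1.31 ± 0.31 SE, adjusted p = 3.39e-04). Dhc62B, an axonemal dynein heavy chain, rose by 1.07 ± 0.17 and PolZ2, a subunit of the translesion DNA polymerase zeta, by 0.77 ± 0.12 (SE, log2). TpnC4, a troponin C, had 53.7, 48.7 and 66.9 normalised counts in KD1, against 290.8, 249.5 and 274.1 in lacZ, or 20.8% (−2.27 ± 0.17 SE, adjusted p = 7.33e-39). Bet3, a subunit of the TRAPP tether of Golgi transport, had 64.03, 62.10 and 74.32 against 232.7, 260.8 and 252.0 (−1.90 ± 0.16 SE, adjusted p = 3.85e-30). The choice of zye, Dhc62B, PolZ2, TpnC4 and Bet3 required that the groups did not overlap.

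Fallen genes were long. The median genomic span, from start to end of the annotated gene, was 6676 bases for the 350 coding genes that fell, 2472 for the 142 that rose and 2790 for all 7025. With coding genes sorted by span into 5 bins of near-equal size, 2.20%, 3.28%, 2.99%, 4.99% and 11.5% fell from the shortest bin (162 to 1413 bases) to the longest (7762 to 291517 bases), whereas 1.99%, 2.21%, 2.85%, 1.71% and 1.35% rose. The median log2 level relative to lacZ over the genes of the longest bin was −0.11, −0.07 and −0.05 in KD1, against 0.00, 0.00 and 0.01 in lacZ. The share fallen in the longest bin was 9.54% after correction for exon length and 12.4% without lacZ replicate 2. Genes of the longest bin also had higher counts, with a median of 77.0 CPM against 28.6 CPM in the shortest. In each of 5 bins of mean CPM more genes of the longest bin fell than of the shortest, 20.1% against 6.03% in the lowest CPM bin and 4.59% against 0% in the highest. The number of annotated transcripts went the same way. Of genes with 1 transcript 3.19% fell, and of those with over 8 transcripts 9.92% fell. After correction for exon length these shares were 3.41% and 6.35%, and the median log2 fold change with over 8 transcripts was −0.02, against −0.09 without the correction. The separate parts of span, exon number and transcript number were not tested.

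**Figure D5:**
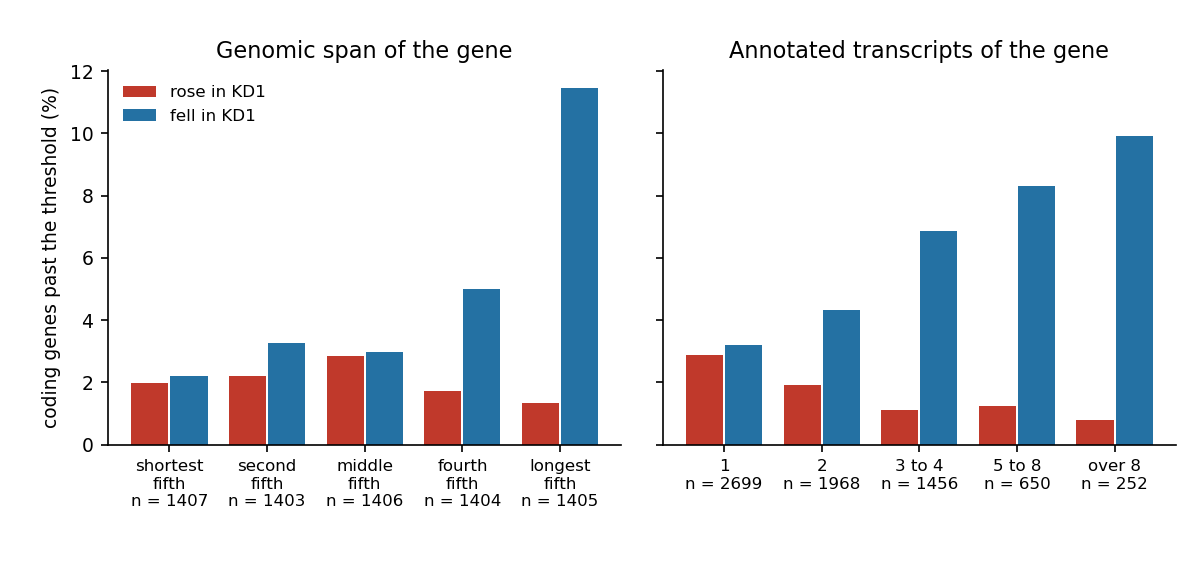
Percentage of protein-coding genes that rose and fell in KD1 against lacZ, by genomic span in 5 bins of near-equal size and by number of annotated transcripts; bars start at 0. The share that fell is 2.20% in the shortest and 11.5% in the longest bin, and 3.19% with 1 transcript and 9.92% with over 8, the last of which is 6.35% after correction for exon length.

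Chromosomes were compared by the same shares. On the small chromosome 4, which is largely packed as heterochromatin, 7 of 74 genes fell (9.46%), 3 rose and the median log2 fold change was −0.10. On the long arms between 4.17% (3R) and 6.38% (X) fell. Adjacent tested genes were called in the same direction in 24 runs with 54 genes, of which 20 runs fell. How many runs arise without clustering, from 5.14% fallen and 2.23% risen over all genes, was not tested. Some runs pair a coding gene with an RNA annotated opposite it, such as SLC5A11 with asRNA:CR44119. The 24 runs included the collagen pair above and sima with Tpi, an enzyme of glycolysis, on 3R. Another held MFS17, CG41378, uex and Haspin near the centromere of 2R, with log2 fold changes of −1.72, −0.63, −0.77 and −0.48. Haspin lost its call without KD1 replicate 1.

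Among 99 long noncoding RNAs 11 rose and 9 fell, but 5 of the 11 passed the CPM filter only through KD1, where they are high, and had to differ. Leaving out 1 library gave between 9 and 10 rises and between 6 and 11 falls. Without lacZ replicate 2, 10 rose and 11 fell, with a median log2 fold change of −0.01, against 0.05 with all libraries. Of the 38 noncoding genes past the threshold, 22 overlapped a coding gene. asRNA:CR44029, annotated opposite unc-13, rose, with 126.2, 176.7 and 149.7 normalised counts in KD1 against 78.2, 42.5 and 68.5 in lacZ (1.26 ± 0.23 SE, adjusted p = 7.18e-07), while unc-13 fell. The choice of asRNA:CR44029 required that the groups did not overlap. Libraries were prepared with a stranded kit, but whether the counting used strand was not given in the sources used here, and reads of an antisense gene and its partner may then be mixed.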

How the data were processed

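6 of the 9 libraries were compared: Hrb98DE KD1 (replicates 1, 3 and 4) and lacZ (replicates 1, 2 and 3). Per the submitters' notes, reads were aligned with STAR 2.5.1b to BDGP6 (dm6) and the authors deposited raw read counts per gene from featureCounts (Subread 1.4.6-p2). The strand setting was not given in the sources used here. Genes with a mean CPM above 1 over the 6 libraries were fitted with DESeq2 1.42.0 (R 4.3.3) on all 9 libraries with group as the factor, Wald contrast KD1 minus lacZ, independent filtering at 0.1 and Benjamini-Hochberg adjustment over all tested genes. A gene was called at adjusted p under 0.05 with a fold change above 1.3. Normalised counts are deposited counts divided by size factors. Of 17559 IDs, 17253 matched Ensembl release 115. The fit was tested on simulated data. Members and gene lists were chosen with earlier results of these data known. Named genes were Hrb98DE, in each class up to 4 called members with the greatest change, above 5 CPM and without overlap, and the 15 coding genes that rose and fell most; others came from the class lists or were named after their values were seen. Alternatives were edgeR 4.0.16, TMM scaling, other filters and folds, exon length, a block by replicate number, and leaving out each library.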

Additional observations from a re-analysis of the deposited data

Results flagged for a closer look

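Hrb87F, the closest paralog of Hrb98DE, was the 1 gene past the threshold between the dsRNAs among genes with an adjusted p in this contrast. Independent filtering left many genes without one, such as CG9521 (log2 difference −0.73), and these could not be called. Hrb87F had 2483, 2457 and 2753 normalised counts with the first dsRNA, at a log2 fold change of −1.26 ± 0.08 (SE) against lacZ. It fell further with the second dsRNA, at −2.10 ± 0.08 (SE). The direct contrast of the first minus the second dsRNA was 0.83 ± 0.08 (SE, DESeq2 adjusted p = 5.05e-22), with 3 libraries in each group. Both comparisons share the lacZ libraries, which do not enter the direct contrast.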

How the results depend on the processing

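None of the 141 genes named by the rule changed direction. Of the 99 class medians, 2 changed sign with edgeR, 7 with the replicate block, 12 with exon length correction and 10 without lacZ replicate 2, and all of these were within 0.05 of 0 in the DESeq2 fit. Long noncoding RNAs came to 6 rises and 3 falls with the block. The 546 calls (165 rises, 381 falls) came to 301 (96, 205) with exon length correction and replicate block, 342 (93, 249) with a fold change prior, 323 (96, 227) with the replicate block, 289 (64, 225) at a fold above 1.5, and 1574 (723, 851) with no fold requirement. Leaving out 1 library at a time gave between 410 and 628 calls, between 125 and 215 rises and between 285 and 413 falls, and 313 of the 546 calls were kept under all 6. edgeR gave 589, TMM scaling 545, the 6 libraries alone 539 and exon length correction 525. Of the named genes, 85 kept their call in every setting other than the fold of 1.5. KD1 and lacZ cultures of equal replicate number had correlations of −0.22 for number 1 and 0.24 for number 3, in deviations from group means. Pairs of unequal number lay between −0.52 and 0.47. These values are too few to tell whether cultures were paired by number. Why the block lowered the counts was not tested. Counts moved with the fold threshold as given, and 3 libraries per group limit classes of few tested genes.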

Other observations

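Further nucleolar genes outside the class list, chosen after their values were seen, also rose. Mys45A had 2106, 1980 and 2118 normalised counts in KD1, against 1465, 1692 and 1494 in lacZ (log2 fold change 0.41 ± 0.07 SE, DESeq2 adjusted p = 1.96e-08). nclb had 5168, 4593 and 4941 against 3490, 4106 and 3613 (0.39 ± 0.08 SE), and peng had 3796, 3451 and 3893 against 2788, 3074 and 2668 (0.38 ± 0.07 SE). Noc1, a large-subunit factor, and Rrp5, which acts on both subunits, rose by 0.45 and 0.42, and both lost their call without lacZ replicate 1, Rrp5 also without lacZ replicate 3. None of these genes had overlapping groups.

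Falls were more frequent near the centromeres of the long arms. Of 160 coding genes within 2.5 Mb of the end of the arm at the centromere 10.6% fell, of 384 between 2.5 and 5 Mb 7.29%, of 1429 between 5 and 10 Mb 6.02%, and of 4973 farther away 4.26%. Genes in the nearest bin were also longer, with a median span of 4611 bases against 2723 in the farthest, and the part of length in this pattern was not tested.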
